A study of Mus musculus with 12 samples.

Results

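The Hox genes encode homeodomain transcription factors that give cells their place along the head-to-tail axis of the embryo, and 38 of them, named gene by gene in a list, are described here out of 55536 annotated genes in the data. They lie in 4 clusters. In the genome build GRCm38, 10 of the listed genes belong to Hoxa (chr6:52162417-52260880), 10 to Hoxb (chr11:96194316-96368256), 9 to Hoxc (chr15:102921103-103036852) and 9 to Hoxd (chr2:74668310-74765142), where each range runs from the outermost listed gene at one end to that at the other. Within a cluster the genes carry paralog numbers from 1 to 13, and genes with the same number in different clusters descend from a common ancestor. Low numbers are used in the hindbrain and neck, intermediate numbers in the trunk, and number 13 at the tail end, in the tips of the limbs and in the genital tract. Outside their domains Hox clusters are covered by H3K27me3, the histone mark that EZH2, the catalytic subunit of the Polycomb complex PRC2, deposits and that goes with transcriptional silence. The forebrain, in which most oligodendrocyte precursor cells (OPCs) of a whole brain reside, develops without Hox expression.

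The libraries came from primary mouse OPCs cultured from pooled brains of pups of age P4-P6, in medium with PDGFaa and bFGF. Total RNA was sequenced from 12 libraries, in 4 groups of 3, and the replicates of a group came from different litters. The sources used here do not say that a replicate number stands for the same litter in every group. The Ctr group received neither agent, and its vehicle is not given in the sources used here. The EZH2i group received the EZH2 inhibitor EPZ011989 at 1.5 µM for 4 days, renewed every 48 h. The IFN-γ group received interferon gamma at 100 ng/ml for 6 h, and the IFN-γ+EZH2i group received the inhibitor for 4 days and interferon, with fresh inhibitor, for the last 6 h. The labels call the cells Sox10GFP+ OPCs, while the protocol allows sorting either by that reporter or with CD140a beads, and which libraries came from which is not stated. All 12 libraries also carry the mouse model label EAE, although the protocol describes pups, so this label separates no groups.

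To show what lies in front of genes that ended at different levels, the 250 bases upstream of the RefSeq start (GRCm38.p6, read 5′ to 3′ on the strand of the gene) are printed for 5 of them, with every CG dinucleotide in capitals, since CG-rich promoters are the usual sites of Polycomb binding. Hoxd8 (chr2:74704365-74704614, plus strand), Hoxa5 (chr6:52204588-52204837, minus strand) and Hoxa13 (chr6:52260881-52261130, minus strand) were higher with the inhibitor. Hoxb8 (chr11:96281655-96281904, plus strand) and Hoxd12 (chr2:74674763-74675012, plus strand) had no count in any library. None of the 5 windows overlaps an annotated exon.
Hoxd8: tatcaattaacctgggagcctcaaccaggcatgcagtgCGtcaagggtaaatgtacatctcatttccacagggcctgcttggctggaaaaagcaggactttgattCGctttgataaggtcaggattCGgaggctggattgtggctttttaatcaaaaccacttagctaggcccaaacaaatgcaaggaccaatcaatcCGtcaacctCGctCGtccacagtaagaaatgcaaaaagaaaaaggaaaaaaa
Hoxa5: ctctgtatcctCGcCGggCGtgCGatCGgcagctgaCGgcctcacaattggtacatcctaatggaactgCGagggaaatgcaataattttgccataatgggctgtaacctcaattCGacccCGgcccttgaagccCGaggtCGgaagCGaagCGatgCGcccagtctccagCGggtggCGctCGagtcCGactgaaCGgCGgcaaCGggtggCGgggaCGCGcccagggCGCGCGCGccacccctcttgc
Hoxa13: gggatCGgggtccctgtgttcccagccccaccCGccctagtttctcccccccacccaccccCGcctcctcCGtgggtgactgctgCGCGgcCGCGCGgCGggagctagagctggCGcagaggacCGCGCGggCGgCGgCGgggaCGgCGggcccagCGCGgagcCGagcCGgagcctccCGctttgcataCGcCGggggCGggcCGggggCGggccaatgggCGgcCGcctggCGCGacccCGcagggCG
Hoxb8: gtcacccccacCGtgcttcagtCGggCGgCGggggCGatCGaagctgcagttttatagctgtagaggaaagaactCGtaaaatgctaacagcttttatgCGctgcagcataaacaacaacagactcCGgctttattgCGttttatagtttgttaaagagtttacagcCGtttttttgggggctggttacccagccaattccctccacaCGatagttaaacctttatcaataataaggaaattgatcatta
Hoxd12: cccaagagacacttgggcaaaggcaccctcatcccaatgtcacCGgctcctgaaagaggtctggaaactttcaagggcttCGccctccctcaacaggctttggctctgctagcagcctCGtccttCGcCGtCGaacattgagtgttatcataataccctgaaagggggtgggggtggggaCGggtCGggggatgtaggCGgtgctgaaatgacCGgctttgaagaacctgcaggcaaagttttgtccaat

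The windows hold 6 CG in Hoxd8, 28 in Hoxa5, 35 in Hoxa13, 12 in Hoxb8 and 10 in Hoxd12. Across 32851 mouse promoter windows of the same length the median was 6, and 92.1% held at least 1. The table of promoters had 24 entries for 22 of the 38 genes, with more than 1 for Hoxa10 and Hoxd11. The entries of the 8 genes that were higher with the inhibitor had 3 to 35 CG (median over entries 13). Those of the other 14 genes had 2 to 24 (median over entries 12). Unlike the 5 printed windows, some of these overlap annotated exons, as that of Hoxa7 does. For Hoxa3, Hoxa7, Hoxd10 and Hoxd13 the bases after the start were not found in a transcript of the gene. The ranges overlapped, and Hoxd8, the member with the highest level, had no more CG than the median of all promoters.

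Library totals ran from 17403896 to 66546017 estimated counts, a 3.82-fold range, so that 3 counts, taken here as the detection floor of a library, stood for 0.0455 to 0.169 CPM (counts scaled to the size of the library). The OPC markers Pdgfra, Cspg4, Sox10, Olig1, Olig2 and Ptprz1 were present in every library, with a summed level of 3837 to 6952 CPM. Microglial markers summed to at most 1.59 CPM and skeletal muscle markers to at most 0.586 CPM, while astrocyte markers summed to 192 to 903 CPM. Within a group, no pair of libraries agreed within sampling noise.

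Without the inhibitor, transcripts of the Hox genes were few and came from the head end of 2 clusters. In Ctr only Hoxa2, Hoxb2 and Hoxa3 were above 3 counts in all 3 libraries. Another 5 genes were above it in some libraries and 30 were at the floor in all 3. With IFN-γ alone, 5 genes were above the floor throughout, 2 in part and 31 in none. Over the 6 libraries without inhibitor the 38 genes together had 899 counts, of which paralog groups 1 to 3 held 757, groups 4 to 8 held 133, groups 9 to 12 held 5 and group 13 held 4. By cluster, 588 of these counts came from Hoxa, 285 from Hoxb, 22 from Hoxd and 4 from Hoxc.

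Hoxa2, which patterns the hindbrain and the second pharyngeal arch, led the genes in Ctr with 0.556 ± 0.122 TPM (a level scaled for transcript length and library size; SD, n = 3). Hoxb2, a hindbrain gene as well, followed with 0.347 ± 0.0813 TPM. Hoxa3, needed for the third arch with the thymus and parathyroids, had 0.146 ± 0.0755 TPM. The ranges of Hoxa2 and Hoxb2 did not overlap, nor did those of Hoxb2 and Hoxa3, while from Hoxa3 down every gene overlapped the next in the order.

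With the inhibitor the order changed. In the EZH2i group 19 genes were above the floor in all 3 libraries, 4 in part and 15 in none, and in the IFN-γ+EZH2i group the numbers were 17, 6 and 15. Counts over the 6 libraries with inhibitor came to 5217. Hoxd went from 22 to 2065, Hoxa from 588 to 2130, Hoxb from 285 to 647 and Hoxc from 4 to 375. In paralog groups 1 to 3 the sum was 757 without and 782 with the inhibitor, in groups 4 to 8 it was 133 and 3087, in groups 9 to 12 it was 5 and 422, and in group 13 it was 4 and 926. The added transcripts thus lay outside the head end of the clusters. In bulk RNA, more cells that express a gene and more transcripts per cell cannot be told apart.

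**Figure D1:**
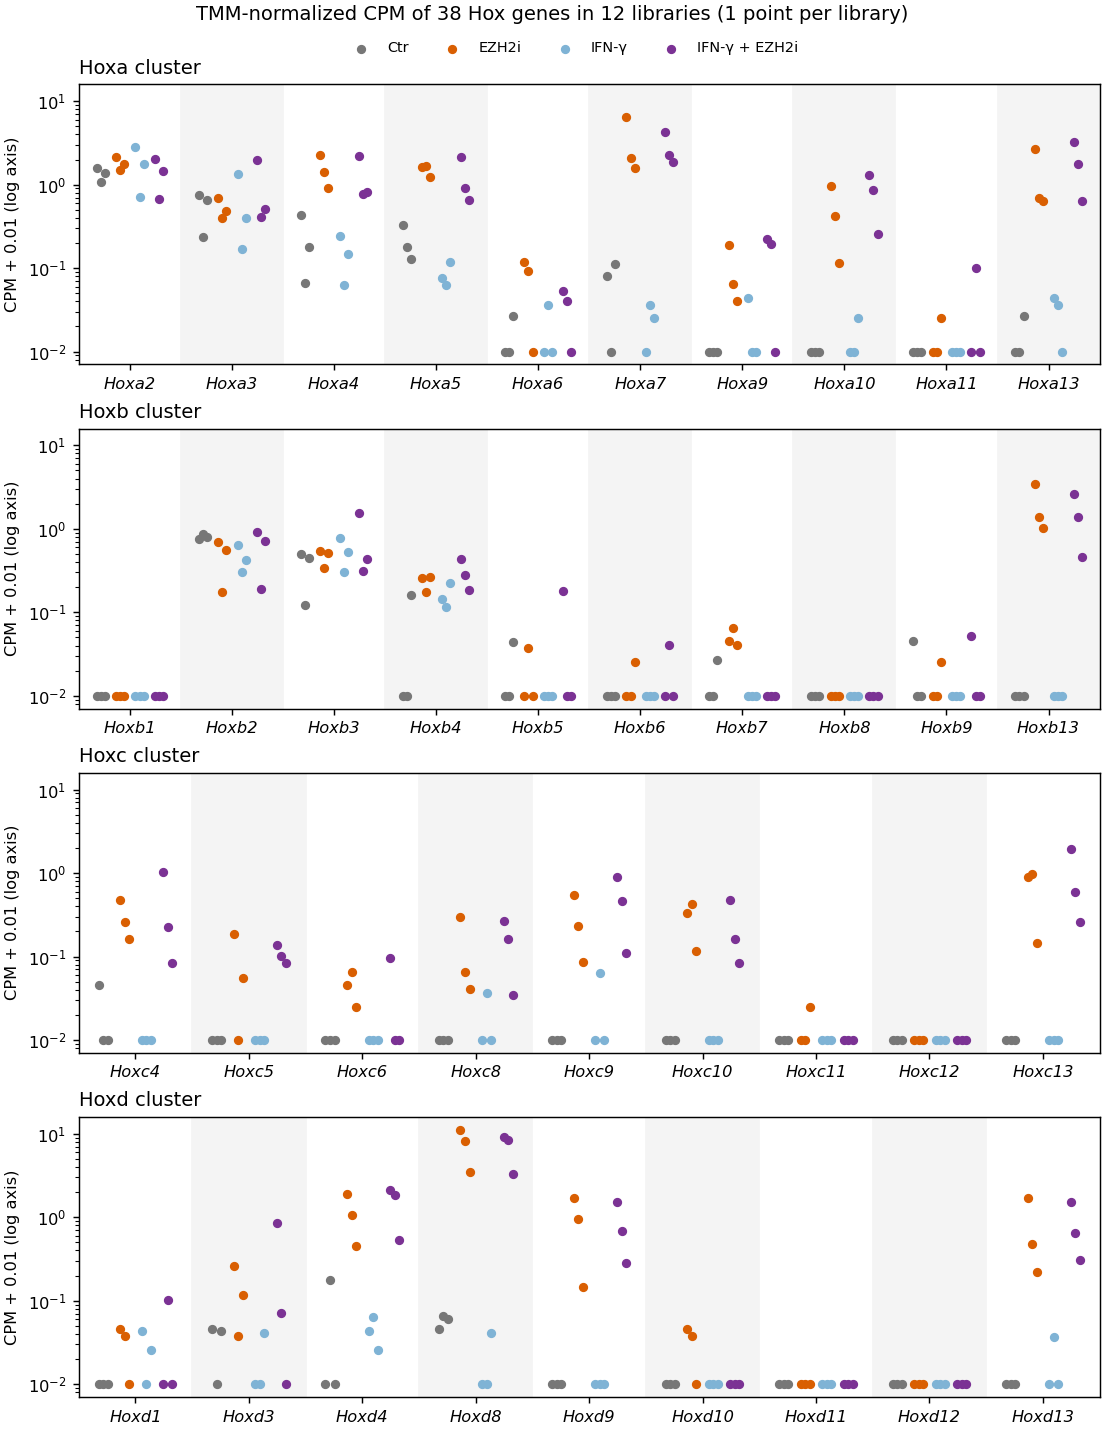
TMM-normalized CPM + 0.01 (log axis) of the 38 Hox genes in the 12 libraries, 1 point per library, coloured by group, with a panel for each cluster and the genes in the order of their paralog numbers. The libraries with EZH2i stand apart from those without in Hoxd8, Hoxa7 and Hoxb13, and they overlap in Hoxa2 and Hoxa3.

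The summed CPM of a cluster gives its level in each library. Hoxd was at 0.0709, 0.0848 and 0.226 as lowest, median and highest library of Ctr, and at 4.39, 10.7 and 16.7 in EZH2i. With IFN-γ it was at 0.0670 to 0.0926 CPM without the inhibitor, and at a lowest and median of 4.42 and 11.8 CPM with it. Hoxd8 alone held 78.5% of the Hoxd TPM in EZH2i and 76.8% in IFN-γ+EZH2i. The Hoxa sum was more evenly shared, and its leading gene changed from Hoxa2 in Ctr (60.3% of the Hoxa TPM) to Hoxa7 in EZH2i (27.7%). Hoxb passed from Hoxb2 (70.7%) to Hoxb13 (57.6%), which lies at the other end of that cluster. In Hoxc, Hoxc13 led with 33.8% in EZH2i.

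Of the 38 genes, 17 had enough counts to enter the test: 7 of 10 in Hoxa, 3 of 10 in Hoxb, 3 of 9 in Hoxc and 4 of 9 in Hoxd. Many of these passed the filter only because they were high with the inhibitor, so the number tested carries no weight of its own. In EZH2i against Ctr, 4 of the 38 (Hoxa5, Hoxa7, Hoxa13 and Hoxd8) were higher at an adjusted p under 0.05 and none was lower (edgeR quasi-likelihood test, Benjamini-Hochberg adjustment over 18995 genes), beside 0.405% of all genes tested that were higher. In IFN-γ+EZH2i against IFN-γ the same 4 genes were higher and none was lower, beside 0.347% of all genes. In this comparison libraries with the same replicate number deviated together, and a fit that blocked on that number had 13 of the 38 higher, beside 3.11% of all genes. Over the mean of both comparisons, 6 libraries against 6, the genes higher numbered 13, beside 2.03% of all genes. The mean shares every library with the separate comparisons and is no independent evidence. These 13 were Hoxa4, Hoxa5, Hoxa7, Hoxa10, Hoxa13, Hoxb13, Hoxc9, Hoxc10, Hoxc13, Hoxd4, Hoxd8, Hoxd9 and Hoxd13. The genes tested and not called in any of the 3 were Hoxa2, Hoxa3, Hoxb2 and Hoxb3.

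Apart from Hoxd8, the calls in the separate comparisons depended on which libraries were fitted. Hoxd8 was called in both comparisons in all 12 fits that each left out 1 library. In EZH2i against Ctr, Hoxa7 was called in 9 of these fits, Hoxa13 in 5 and Hoxa5 in 2. In IFN-γ+EZH2i against IFN-γ, Hoxa7 was called in 10, Hoxa13 in 6 and Hoxa5 in 9. In EZH2i against Ctr only 1 of the 38 remained called without any one of the 3 Ctr libraries, and 2 without EZH2i replicate 1, EZH2i replicate 2, IFN-γ replicate 2 or IFN-γ+EZH2i replicate 2. In IFN-γ+EZH2i against IFN-γ, 2 were called without IFN-γ replicate 1 and 1 without IFN-γ replicate 2 or 3. DESeq2 called 13 in each, beside 1.26% and 1.03% of all genes. In the mean of both DESeq2 called 15, beside 3.09%, and with edgeR 9 to 14 were called over the 12 fits that each left out 1 library. Hoxc13 lost its call without EZH2i replicate 1 or 2, and Hoxd9 lost it without replicate 2 of EZH2i or of IFN-γ+EZH2i. Hoxc10 was called in 4 of the 12 fits and Hoxc9 in 2, with adjusted p up to 0.0843 and 0.0885 (edgeR, Benjamini-Hochberg). The other 9 of the 13 genes were called in all 12.

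By paralog number, the mean of both comparisons called 0 of the 7 genes of groups 1 to 3, 5 of 15 in groups 4 to 8, 4 of 12 in groups 9 to 12 and 4 of 4 in group 13. In the same order of groups 4, 5, 4 and 4 genes were tested, so every tested gene outside groups 1 to 3 was called. By cluster it called 5 of 10 in Hoxa, 1 of 10 in Hoxb, 3 of 9 in Hoxc and 4 of 9 in Hoxd, where 7, 3, 3 and 4 were tested. These fractions largely follow which genes had enough counts to be tested, and do not rank the groups or clusters by response. Without any test, 19 of the 38 had all 3 EZH2i libraries above all 3 Ctr libraries, beside 5.57% of all genes with a count in any library. With IFN-γ it was 15, beside 4.75%. Some of the 19 rest on single reads near the floor. Hoxb7 had 0, 0 and 1 counts in Ctr and 1, 2 and 2 in EZH2i, and Hoxc6 had none and 1, 2 and 1. The 6 libraries with inhibitor all stood above the 6 without in 14 genes, beside 0.906%, which are the 13 called genes and Hoxc4. Hoxb2 alone had all 3 EZH2i libraries below those of Ctr.

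**Figure D2:**
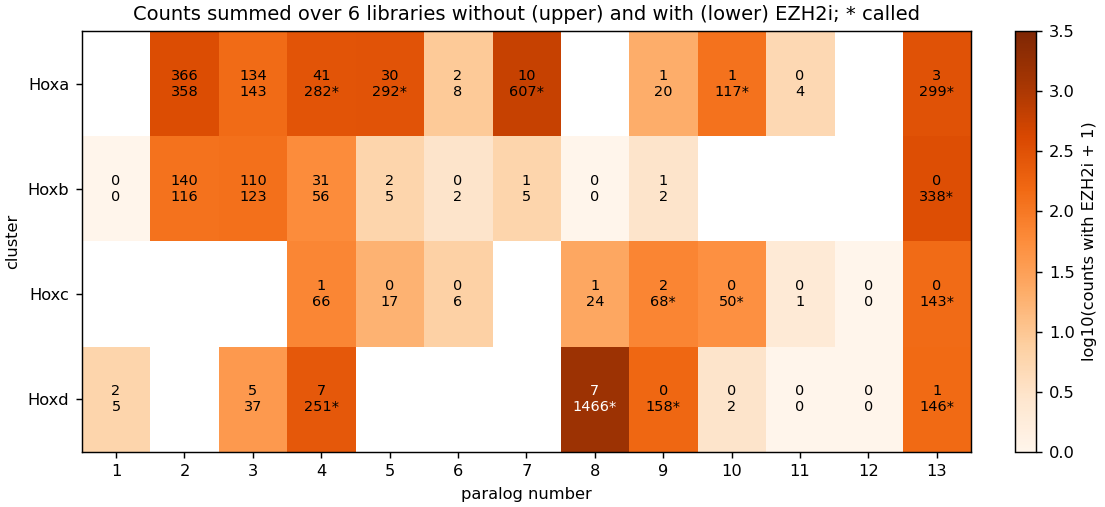
Counts summed over the 6 libraries without EZH2i (upper number in each cell) and the 6 with EZH2i (lower number) for each listed Hox gene, with clusters as rows and paralog numbers as columns. The colour gives log10 of the lower number plus 1, an asterisk marks an adjusted p under 0.05 in the mean of both inhibitor comparisons, and blank cells hold no listed gene. All 4 genes of column 13 carry an asterisk, while columns 11 and 12 hold between 0 and 4 counts.

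Paralog group 13 is the tail end of every cluster, and its genes are needed for digits, tail and the lower urogenital tract. Hoxa13, a gene of digit and genital tract formation, had 0, 0 and 1 counts in Ctr and 75, 25 and 41 in EZH2i, with 1, 1 and 0 in IFN-γ and 75, 58 and 25 in IFN-γ+EZH2i. All 6 libraries with inhibitor stood above the others. Its mean rose from below the floor to 1.33 ± 1.17 CPM (SD, n = 3), at least 12.2-fold (edgeR log2 fold change 6.71 ± 1.18 SE, Benjamini-Hochberg adjusted p = 0.0364). With IFN-γ the mean reached 1.86 ± 1.29 CPM, at least 24.7-fold over the floor (edgeR log2 fold change 6.60 ± 1.05 SE, Benjamini-Hochberg adjusted p = 0.0261). Bounds of this kind are given where the mean without inhibitor was under the floor, and set that group at 3 counts in each library.

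Hoxb13, which acts in the prostate and in the length of the tail, had no count in the 6 libraries without inhibitor. It had 97, 50 and 67 counts in EZH2i and 61, 45 and 18 in IFN-γ+EZH2i. The groups did not overlap, and the means with inhibitor were 1.95 ± 1.32 and 1.47 ± 1.08 CPM, at least 17.9-fold and 19.5-fold over the floor. It missed the threshold in each comparison (edgeR, Benjamini-Hochberg adjusted p = 0.0566 and 0.0615) and passed it in their mean (adjusted p = 0.00437).

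Hoxc13, a gene of hair and nail formation, was also without a count where no inhibitor was given. With it the counts were 25, 35 and 9 in EZH2i and 45, 19 and 10 in IFN-γ+EZH2i. Hoxd13, which shapes the digits, had 47, 17 and 14 counts in EZH2i and 35, 21 and 12 in IFN-γ+EZH2i, against a total of 1 in the 6 libraries without inhibitor. Both were called in the mean of the comparisons alone, Hoxc13 with an adjusted p of 0.0227 and Hoxd13 with 0.00884 (edgeR, Benjamini-Hochberg).

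The genes next to group 13 were barely detected. Groups 11 and 12, which act in limb, kidney and reproductive tract, held 5 listed genes in all. Of these, Hoxc12, Hoxd11 and Hoxd12 had no count in any library, Hoxa11 had 4 counts in all and Hoxc11 had 1. A count of 0 here means not detected at this depth. In Hoxd the stretch without such counts between Hoxd13 and Hoxd9 also took in Hoxd10, with 2 counts, and Hoxd9 marked the start of the next run of genes with counts. In Hoxb it ran from Hoxb9 to Hoxb5.

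Hoxd8, a gene of the trunk, was the member with the highest level and the largest count. It had 1, 1 and 3 counts in Ctr, 312, 298 and 230 in EZH2i, 0, 0 and 2 in IFN-γ, and 212, 280 and 134 in IFN-γ+EZH2i. There was no overlap between libraries with and without inhibitor. Its mean was 7.60 ± 3.86 CPM in EZH2i, at least 69.8-fold above the floor (edgeR log2 fold change 7.22 ± 0.71 SE, Benjamini-Hochberg adjusted p = 0.00319). In IFN-γ+EZH2i it was 6.97 ± 3.16 CPM, at least 92.2-fold above the floor (edgeR log2 fold change 8.60 ± 0.78 SE, Benjamini-Hochberg adjusted p = 0.00134). All its counts with inhibitor fell on protein-coding transcripts (100.0%). In TPM Hoxd8 ranked the first in both groups with inhibitor, with 4.54 ± 3.64 and 4.17 ± 3.36, although its range overlapped that of Hoxa7, the second.

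Hoxa7, which acts in the thoracic vertebral column, had 2, 0 and 6 counts in Ctr and 179, 75 and 105 in EZH2i. In IFN-γ there were 0, 1 and 1 counts and in IFN-γ+EZH2i 100, 74 and 74. Again every library with inhibitor stood above every library without. The mean went from 0.0576 ± 0.0522 CPM, which is under the floor, to 3.35 ± 2.65 CPM without IFN-γ, at least 30.8-fold over the floor (edgeR log2 fold change 5.47 ± 0.76 SE, Benjamini-Hochberg adjusted p = 0.0102). With IFN-γ it reached 2.79 ± 1.30 CPM, at least 36.9-fold over the floor (edgeR log2 fold change 7.24 ± 0.89 SE, Benjamini-Hochberg adjusted p = 0.00654).

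Hoxa5, needed for the lung and the neck-to-trunk boundary, had counts in all 6 libraries without inhibitor. It had 9, 3 and 7 counts in Ctr and 45, 61 and 80 in EZH2i, with 2, 2 and 7 in IFN-γ and 50, 30 and 26 in IFN-γ+EZH2i. The groups did not overlap in CPM, and the gene lies, with Hoxa4, inside the annotated span of Hoxa3. The mean rose 7.40-fold, from 0.202 ± 0.104 to 1.50 ± 0.248 CPM (edgeR log2 fold change 2.92 ± 0.53 SE, Benjamini-Hochberg adjusted p = 0.0402). With IFN-γ it rose 16.2-fold, from 0.0761 ± 0.0285 to 1.23 ± 0.795 CPM (edgeR log2 fold change 3.86 ± 0.57 SE, Benjamini-Hochberg adjusted p = 0.0185).

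Hoxa4, its neighbour toward the head end, which specifies neck vertebrae, had 12, 1 and 10 counts in Ctr and 63, 51 and 60 in EZH2i. In IFN-γ the counts were 7, 2 and 9 and in IFN-γ+EZH2i 51, 25 and 32. Hoxd4, a gene of the posterior hindbrain and neck, had 0, 3 and 0 counts in Ctr and 53, 39 and 29 in EZH2i, with 1, 2 and 1 in IFN-γ and 49, 60 and 21 in IFN-γ+EZH2i. Neither gene's groups overlapped. The mean of Hoxd4 was at least 10.4-fold over the floor in EZH2i and 19.6-fold in IFN-γ+EZH2i. Both passed only in the mean of the comparisons (edgeR, Benjamini-Hochberg adjusted p = 0.00793 for Hoxa4 and 0.0037 for Hoxd4). Of the Hoxd4 counts with inhibitor, 77.2% fell on protein-coding transcripts, and its annotated span overlaps that of Hoxd3.

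The other genes of group 4 were lower. Hoxb4, known for the expansion of blood stem cells, had 0, 0 and 9 counts in Ctr, 7, 6 and 17 in EZH2i, 4, 4 and 14 in IFN-γ and 10, 9 and 7 in IFN-γ+EZH2i. It did not pass the filter, and its libraries with and without inhibitor overlapped when IFN-γ was given. Hoxc4 had a total of 1 count without inhibitor, and 13, 9 and 10 in EZH2i and 24, 7 and 3 in IFN-γ+EZH2i. It did not pass the filter either. DESeq2, whose own filter on low counts was looser and left 22677 genes, called it in the mean of both comparisons together with Hoxc8.

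**Figure D3:**
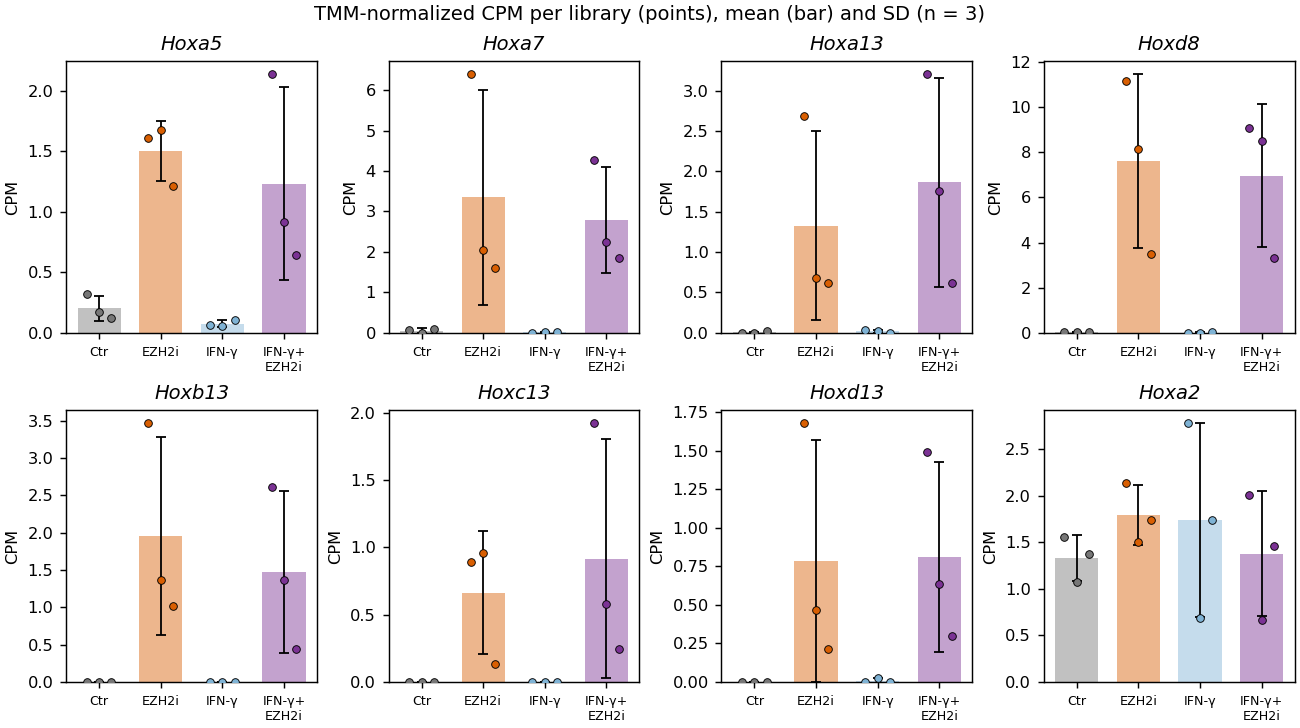
TMM-normalized CPM in each library (points), with the mean (bar) and the SD (error bar, n = 3, on an axis that starts at 0), in the 4 groups. Hoxa5, Hoxa7, Hoxa13, Hoxb13, Hoxc13, Hoxd8 and Hoxd13 were called higher with EZH2i in the mean of both comparisons. Hoxa2 was not called, and its libraries with and without EZH2i overlap. In each other gene shown the 6 libraries with EZH2i lie above the 6 without. The 3 libraries of a group with EZH2i are mostly widely spread.

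Paralog groups 9 and 10 pattern the trunk behind the forelimbs and the lumbar region, including their motor neurons. Hoxd9 had no count in the 6 libraries without inhibitor, and 47, 34 and 9 in EZH2i and 35, 22 and 11 in IFN-γ+EZH2i. Hoxc9 had 15, 8 and 5 counts in EZH2i and 21, 15 and 4 in IFN-γ+EZH2i, against 2 in all without inhibitor. The lowest values with inhibitor were thus close to the floor. Hoxa10, also needed in the uterus, had 27, 15 and 7 counts in EZH2i and 30, 28 and 10 in IFN-γ+EZH2i, against 1 in all without inhibitor. Hoxc10 had 9, 15 and 7 counts in EZH2i and 11, 5 and 3 in IFN-γ+EZH2i, against none. Each of the 4 passed in the mean of the comparisons only (edgeR, Benjamini-Hochberg adjusted p = 0.0212 for Hoxd9, 0.0394 for Hoxc9, 0.00917 for Hoxa10 and 0.0322 for Hoxc10), and the calls of Hoxc9 and Hoxc10 were lost in most fits that left out 1 library. Of the Hoxa10 counts with inhibitor, 55.8% fell on protein-coding transcripts. Hoxa9, known from leukaemia, did not pass the filter and had 20 counts with inhibitor, 37.0% of them on protein-coding transcripts.

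The block by replicate number moved the 9 genes called in the mean alone past the threshold in IFN-γ+EZH2i against IFN-γ as well. Their blocked adjusted p ran from 0.000867 for Hoxd4 to 0.0490 for Hoxc10 (edgeR, Benjamini-Hochberg). For the 4 genes called without the block it was 5.6e-06 for Hoxd8, 7.6e-05 for Hoxa7, 0.000195 for Hoxa13 and 0.00112 for Hoxa5. Libraries with the same replicate number stood at similar places in their groups. Among the 13 called genes, EZH2i replicate 1 had the highest CPM of its group in 10 and replicate 2 in 3, and replicate 3 had the lowest in all 13. In IFN-γ+EZH2i, replicate 1 was highest in all 13 and replicate 3 lowest in 12. The highest library exceeded the lowest by 1.38-fold in Hoxa5 to 12.3-fold in Hoxd9 in EZH2i (median 4.30-fold), and by 2.32-fold in Hoxa7 to 9.03-fold in Hoxc9 in IFN-γ+EZH2i (median 5.16-fold). The libraries of a group thus fell in nearly the same order across genes of all 4 clusters. The replicate 3 libraries were also the deepest of these groups, with 61416854 and 42555540 counts, and the part of depth in this order was not tested.

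The genes at the head end behaved otherwise. Hoxa2 ranged from 1.07 to 1.56 CPM in Ctr, 1.51 to 2.14 in EZH2i, 0.693 to 2.78 in IFN-γ and 0.669 to 2.01 in IFN-γ+EZH2i (edgeR log2 fold change over the mean of both comparisons 0.04 ± 0.34 SE, Benjamini-Hochberg adjusted p = 0.985). Hoxb2 was at 0.745 to 0.847 CPM in Ctr and 0.164 to 0.679 in EZH2i, and with IFN-γ at 0.293 to 0.637 without and 0.182 to 0.897 with the inhibitor. The direction of Hoxb2 differed between the comparisons. Hoxa3 was at 0.226 to 0.745 CPM in Ctr and 0.384 to 0.679 in EZH2i, and with IFN-γ at 0.160 to 1.34 without and 0.395 to 1.97 with the inhibitor. Hoxb3, which works with Hoxa3 in the hindbrain and neck, was at 0.113 to 0.496 CPM in Ctr and 0.329 to 0.536 in EZH2i, and with IFN-γ at 0.293 to 0.771 without and 0.304 to 1.54 with the inhibitor. Apart from Hoxb2 without IFN-γ, groups with and without inhibitor overlapped in all 4 genes, and the adjusted p over the mean of both was at least 0.827 (edgeR, Benjamini-Hochberg).

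The remaining listed genes stayed near or at 0. Hoxb1, the rhombomere gene at the head end of Hoxb, and Hoxb8, which acts in the trunk and in spinal sensory circuits, had no count in any library, like Hoxc12, Hoxd11 and Hoxd12. Over the 6 libraries with inhibitor, Hoxa6 had 8 counts, Hoxb5 and Hoxb7 5 each, Hoxb6 and Hoxb9 2 each and Hoxd1 5. In Hoxc, Hoxc5 had 17, Hoxc6 had 6 and Hoxc8 had 24. The annotated span of Hoxc5 takes in Hoxc6, Hoxc8 and Hoxc9 and reaches into Hoxc10, so estimated counts could be divided among them where they share exons. Hoxd3, whose annotated span overlaps Hoxd4, had 36.9 counts with inhibitor, and in the IFN-γ+EZH2i libraries it ran from 0 to 0.855 CPM.

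**Figure D4:**
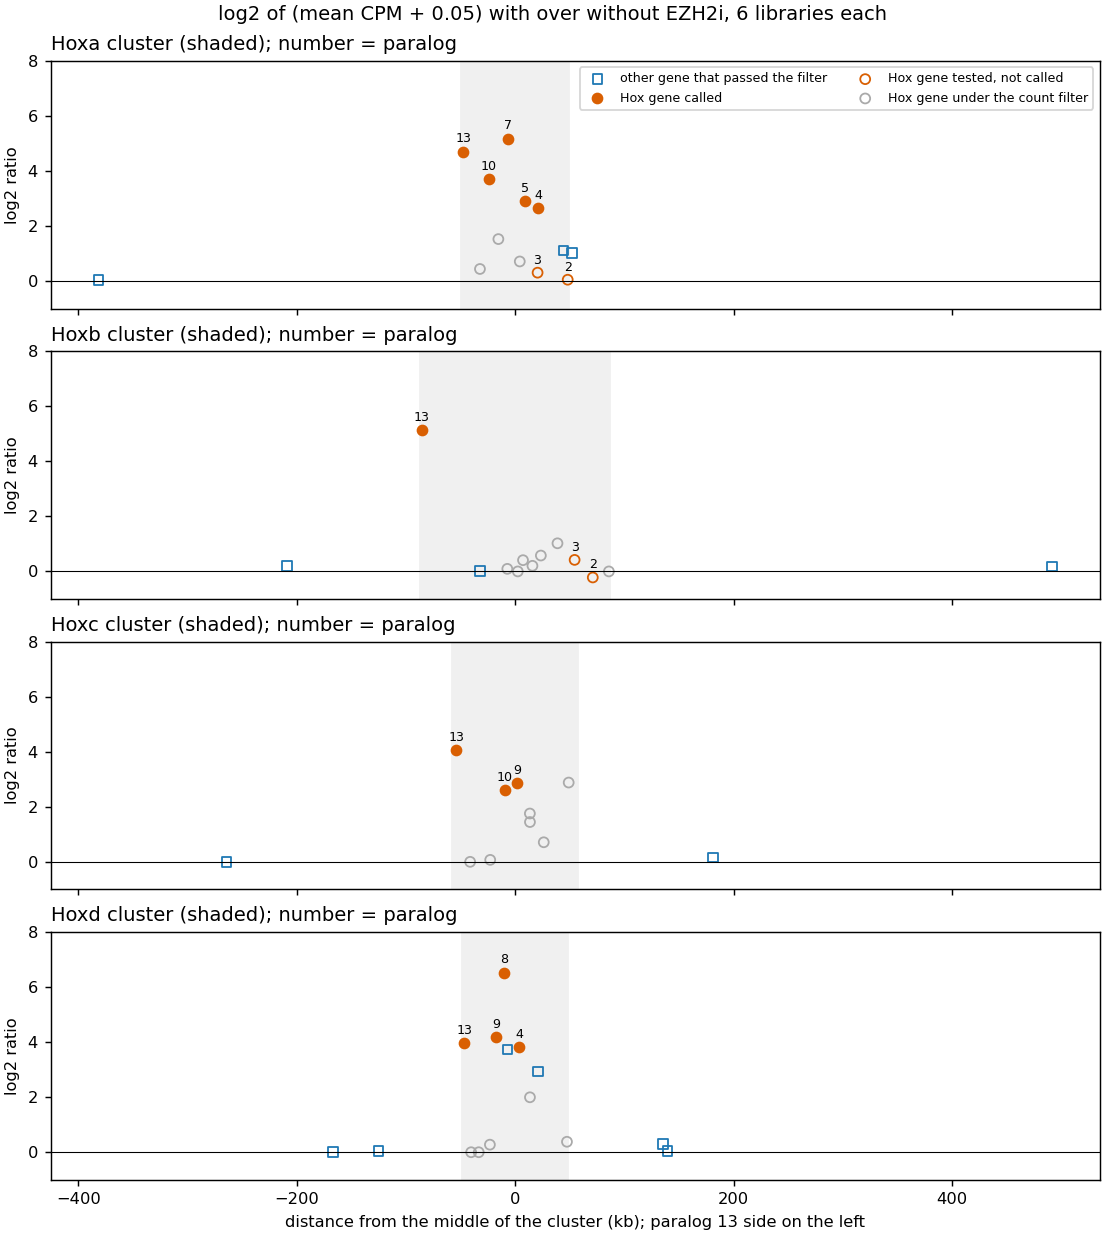
Log2 ratio of mean CPM + 0.05 over the 6 libraries with EZH2i to that over the 6 without, for each listed Hox gene (circles, numbered by paralog where tested) and for other tested genes near the clusters (squares), against the distance in kb from the middle of each cluster, which is shaded. Filled circles are genes called in the mean of both comparisons. In Hoxd the ratio is high at paralogs 13, 9, 8 and 4 and near 0 between 13 and 9, and the tested genes outside the clusters lie near 0 apart from Hotairm1 at the edge of Hoxa.

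Few of the genes in and around the clusters could be tested. Within the 4 ranges, 41 annotated genes other than the listed Hox genes were present, 4 were tested, and 2 were higher in the mean of both comparisons, beside 2.03% of all genes. These were Hoxd3os1, an antisense RNA (edgeR log2 fold change 6.72 ± 1.07 SE, Benjamini-Hochberg adjusted p = 0.0109), and Gm28230 (log2 fold change 5.29 ± 1.08 SE, adjusted p = 0.0368). Both overlap Hoxd3 and Hoxd4, and Hoxd3os1 overlaps Hoxd8 too, but on the opposite strand. Gm28230 lies on the same strand as Hoxd3 and Hoxd4, so reads may be divided among these genes where they share exons. Hoxd3os1 had no count in Ctr, 28, 18 and 5 in EZH2i, at most 1 in IFN-γ and 29, 27 and 11 in IFN-γ+EZH2i. Gm28230 had 0, 0 and 3 counts in Ctr, 23, 8 and 7 in EZH2i, none in IFN-γ and 11, 23 and 3 in IFN-γ+EZH2i. Within 100 kb outside the clusters there were 38 genes, of which 5 were tested and 0 were called by edgeR.

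On the sides of Hoxd the nearest tested genes were Mrpl23-ps1, a pseudogene 76.4 kb away, and Mtx2, a gene of mitochondrial import 60.7 kb away. Mrpl23-ps1 was at 22.8 ± 4.08 CPM in Ctr and 21.8 ± 1.62 in EZH2i, and Mtx2 at 24.3 ± 2.84 and 30.6 ± 2.09 (SD, n = 3). Neither was called (edgeR, Benjamini-Hochberg adjusted p over the mean of both comparisons 0.934 and 0.247). Beside Hoxa, the antisense RNA Hotairm1 lies 0.298 kb beyond Hoxa2 and was at 0.151 ± 0.0850 CPM in Ctr and 0.665 ± 0.0209 in EZH2i (edgeR, Benjamini-Hochberg adjusted p = 0.0893). With IFN-γ it was at 0.298 ± 0.0347 CPM without and 0.346 ± 0.115 with the inhibitor (adjusted p = 0.999), and over the mean of both the adjusted p was 0.0936. On the far side of Hoxa the nearest was Hibadh, at 285 kb. Around Hoxb they were Atp5g1 at 119 kb and Snx11 at 399 kb, and around Hoxc Calcoco1 at 199 kb and Smug1 at 116 kb. None of these was called in an inhibitor comparison, and the space between each and its cluster could not be tested.

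IFN-γ did not move a listed Hox gene past the test. Only 17 of the 38 entered the edgeR test. In IFN-γ against Ctr 0 of these 17 were called, beside 8.75% of all genes in either direction. In IFN-γ+EZH2i against EZH2i 0 of the 17 were called, beside 8.07%. No tested Hox gene had an unadjusted p under 0.05 in either, and DESeq2 and the fit with the replicate block called 0 too. Of the 38, 30 were at the floor in all Ctr libraries and 31 in all IFN-γ libraries. Hoxb13, Hoxc10, Hoxc13 and Hoxd9 had no count in either group. For genes at the floor IFN-γ against Ctr could show no fall, so it does not decide whether most listed genes respond to IFN-γ. The response to the inhibitor was set against IFN-γ by the interaction term, which called 0 listed genes and 0.0% of all genes with edgeR, DESeq2 and the block. For Hoxb13, Hoxc10, Hoxc13 and Hoxd9 it could not be estimated (edgeR SE of 540 to 1566 on the log2 scale), so these could not be called. At an unadjusted p under 0.05 the interaction had 0 listed genes and 127 of 18995 genes with edgeR. For Hoxd8 the interaction was 1.38 ± 1.30 SE on the log2 scale (edgeR, Benjamini-Hochberg adjusted p = 1.000), a width that leaves a difference of several-fold undetected.

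Hox proteins bind DNA together with cofactors of the TALE class of homeodomain proteins. All 9 genes of this list were tested and 0 were called in the 3 inhibitor comparisons, with a median log2 fold change of 0.04 over their mean against 0.00 over all genes. Meis1 was higher with IFN-γ, with and without inhibitor. Of 13 regulators of Hox expression, 7 were tested, and Aldh1a2, the enzyme that makes retinoic acid, was higher in the mean of both inhibitor comparisons (edgeR log2 fold change 3.59, Benjamini-Hochberg adjusted p = 0.0135). Its mean was 0.0231 CPM in Ctr and 0.442 in EZH2i, with 0 to 21 counts per library. Cyp26b1, an enzyme that breaks down retinoic acid, was higher with IFN-γ in both IFN-γ comparisons. Cdx4, an activator of trunk Hox genes, had no count, and Cdx1 and Cdx2 had at most 2 and 5 in any library.

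The inhibitor blocks the activity of the EZH2 protein, so RNA of the targeted gene does not check the treatment. Ezh2 was at 49.4 CPM in Ctr and 39.6 in EZH2i, Eed at 28.4 and 27.8, and Suz12 at 49.2 and 45.6. None of the 4 genes of the PRC2 core and none of 5 H3K27 demethylase and MLL genes was called in an inhibitor comparison by edgeR.

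Markers of other cells were read in the same libraries. Of 4 neuronal markers, Snap25 and Syt1 were higher with the inhibitor in the mean of both comparisons (edgeR, Benjamini-Hochberg adjusted p = 0.00716 and 0.0261). The summed neuronal level was 34.7 to 48.0 CPM in Ctr and 48.6 to 85.4 in EZH2i, and 685 to 1278 in IFN-γ and 949 to 1643 in IFN-γ+EZH2i, where Tubb3 made up most of it. Of 4 oligodendrocyte markers Mbp was lower in the mean of both (adjusted p = 0.0225), and their sum was 1421 to 1781 CPM in Ctr and 793 to 1247 in EZH2i. No astrocyte, microglial, endothelial, mural or Schwann marker was called in an inhibitor comparison. The endothelial sum, however, was 9.20 to 16.9 CPM in Ctr and 19.5 to 35.4 in EZH2i. With IFN-γ it was 8.26 to 16.5 CPM without and 17.1 to 32.5 with the inhibitor. Flt1 and Foxd3 came near the threshold in the mean of both comparisons (edgeR, Benjamini-Hochberg adjusted p = 0.0585 and 0.0540). The astrocyte, microglial, mural and Schwann sums overlapped in both comparisons. Of the markers of these cell types, Aif1, Cx3cr1, Cdh5, Pdgfrb, Dcn and Foxd3 were at 0 counts in at least 1 library. The part of these cells in the Hox result was not tested. Myog had at most 2 counts in any library.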

How the data were processed

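The authors deposited, per library, Salmon 0.8.2 tables of estimated counts and of TPM for 141862 transcripts; the submitters' notes name mm10 and GRCm38. All transcript identifiers were found in the GENCODE M21 annotation of GRCm38, and estimated counts were summed over 55536 genes and rounded. 2 tables of the authors' own comparisons (mean normalized counts, fold changes, standard errors, p-values) were not used. Genes were tested with edgeR 4.0.16 in R 4.3.3 (TMM scaling, filterByExpr, quasi-likelihood fit by group over 12 libraries, Benjamini-Hochberg over 18995 genes, threshold 0.05). CPM are TMM-normalized. DESeq2 1.42.0, other filters and left-out libraries were alternatives, and the fits were tested on simulated data. P-values measure the spread between these 12 libraries, made from pooled pups. In IFN-γ+EZH2i against IFN-γ, same-numbered libraries correlated at 0.493 to 0.642, so the numbers pair them; in EZH2i against Ctr they correlated at 0.441, 0.0467 and 0.495, and since a pairing was taken only where all 3 passed 0.1, the numbers were not taken as pairs. Every listed member is named; those called in an inhibitor comparison are given by library, the other tested ones by range and the rest by counts. Members, gene lists and marker lists were chosen with earlier results of these data known. Another gene of the family is not reported here.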

Additional observations from a re-analysis of the deposited data

How the results depend on the processing

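In EZH2i against Ctr, the 4 listed genes called became 13 with DESeq2 and 13 with the replicate block (beside 3.46% of all genes), where replicates 1 and 3 deviated together and replicate 2 did not (correlations 0.441, 0.495 and 0.0467), 8 with no filter on low counts, 2 with length-scaled TPM, 2 with a filter at a mean of 1 CPM and 1 when only the libraries compared were fitted. Leaving out 1 library gave 1 to 5. In IFN-γ+EZH2i against IFN-γ, the 4 became 13 with DESeq2 and 13 with the block, 10 with no filter, 2 with a mean of 1 CPM, 2 with only the libraries compared, and 1 to 6 with 1 library left out. In the mean of both, the 13 became 2 with the filter at 1 CPM, which leaves few Hox genes to test, and 9 to 14 with 1 library left out. The block changed no other call of a listed gene. With a floor of 10 counts, 11 genes in EZH2i, 3 in IFN-γ and 11 in IFN-γ+EZH2i were above it throughout. The IFN-γ comparisons and the interaction called 0 listed genes in every alternative run.

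No called gene changed direction. Leaving out 1 library turned the sign of 4 uncalled genes on the log2 scale. In EZH2i against Ctr Hoxa3 ran from -0.45 to 0.11 and Hoxb3 from -0.036 to 0.55. In IFN-γ+EZH2i against IFN-γ Hoxa2 ran from -0.71 to 0.15, Hoxa3 from -0.45 to 1.70 and Hoxb3 from -0.53 to 0.86. Over the mean of both, Hoxa2 ran from -0.15 to 0.28, Hoxa3 from -0.30 to 0.78, Hoxb2 from -0.39 to 0.024 and Hoxb3 from -0.12 to 0.58. The cause was not tested. Depth limits genes at 0: a gene below 3 counts per library could not be seen here.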
